A study of Mus musculus with 49 samples.

Results

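The late phase of arthritis in the ankle was examined with 3 arrays of whole ankle taken at day 18 after the initial injection of K/BxN serum and 4 arrays of ankle taken at day 0, which serves as the level before serum. These 7 were chosen by their titles from 49 arrays of the series, 19 of them from ankle. Day 18 is the last day sampled, and the comparison asks which genes had not returned to their level before serum. All recipients were male B6 mice of 6 weeks, and the labels of the synovial fluid samples, not those of ankle, name the serum as K/BxN. Ankles of day 7 (4 arrays) and day 12 (3 arrays) served to place the day 18 values on the time course. Ankles of mice given control serum were not analysed here, so serum and time since injection cannot be told apart. Nothing in the labels says whether arrays of a day came from separate animals, so each p-value reflects variation among these arrays, possibly technical in part.

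Serum of K/BxN mice carries autoantibodies against glucose-6-phosphate isomerase, which form immune complexes in the joint and draw in neutrophils and macrophages. Inflamed synovium makes cytokines and chemokines, and its fibroblasts release metalloproteinases that cut collagen and proteoglycan. In established disease cartilage and bone are worn down while leukocytes persist, and the serum-transferred form can subside once antibody is cleared.

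At day 18, 5 of 21 genes of matrix proteases and inhibitors and 8 of 19 neutrophil genes were above their level before serum, and 8 of 20 fat cell genes were below it. Mmp9 is in both of the raised counts. With 1 array left out, the genes called were 5 for matrix proteases, 5 to 8 for neutrophils and 1 to 9 for fat cells. Of 8252 genes, 93 were higher at day 18 than at day 0 and 73 were lower by limma at an adjusted p under 0.05. These are 1.13% and 0.885% of the genes, and 2.01% together. Of the granule genes of neutrophils, Camp, Ngp and Ltf were above both their day 0 and their day 7 level at day 18. Elane, Mpo, Prtn3 and Ctsg did not pass against day 0, but their group means were under the background level given below, where a change may be understated. Against day 7, 5 genes passed the test, all higher at day 18 (0.0606% of the genes), and against day 12, 0 passed. The day 7 count was 0 without day 7 replicate 2 or 3.

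The 3 largest rises and the 3 granule genes above day 7 are shown with the DNA just before their start. The stretches are the 160 bases before the annotated start in RefSeq (GRCm38.p6), printed 5′ to 3′ on the gene's strand. Capitals mark matches on either strand to AP-1 (TGANTCA), C/EBP (TTGCNNAA) or NF-kB (GGGA, then 4 bases of any kind, then CC) motifs, and 0 matches overlap one another. Mmp13 lies at chr9:7272354-7272513 (+), Mmp3 at chr9:7445662-7445821 (+) and Saa3 at chr7:46715677-46715836 (-). The granule genes share the chromosome of the proteases, with Camp at chr9:109849457-109849616 (-), Ngp at chr9:110419648-110419807 (+) and Ltf at chr9:111019132-111019291 (+).
Mmp13: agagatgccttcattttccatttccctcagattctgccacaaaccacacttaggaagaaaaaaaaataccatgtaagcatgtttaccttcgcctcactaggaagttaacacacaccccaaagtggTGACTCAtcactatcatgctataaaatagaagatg
Mmp3: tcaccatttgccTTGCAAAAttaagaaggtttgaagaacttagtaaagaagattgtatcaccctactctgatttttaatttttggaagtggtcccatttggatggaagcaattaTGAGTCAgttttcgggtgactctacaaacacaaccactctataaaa
Saa3: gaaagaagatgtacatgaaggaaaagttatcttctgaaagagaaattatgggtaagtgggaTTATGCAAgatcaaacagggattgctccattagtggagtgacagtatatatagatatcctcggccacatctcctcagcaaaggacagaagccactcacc
Camp: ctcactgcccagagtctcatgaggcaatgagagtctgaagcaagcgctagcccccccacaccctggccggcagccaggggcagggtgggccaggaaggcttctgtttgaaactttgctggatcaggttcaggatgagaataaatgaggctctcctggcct
Ngp: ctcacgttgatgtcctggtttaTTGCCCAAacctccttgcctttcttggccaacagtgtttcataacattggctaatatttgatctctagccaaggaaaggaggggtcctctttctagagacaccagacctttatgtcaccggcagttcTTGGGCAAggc
Ltf: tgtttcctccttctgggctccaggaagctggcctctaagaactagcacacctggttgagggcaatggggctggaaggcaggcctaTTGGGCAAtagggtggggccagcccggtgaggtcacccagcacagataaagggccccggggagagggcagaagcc
The capitals in Mmp13, at 35 to 29 bases before the start, are an AP-1 match, TGACTCA. In Mmp3 an AP-1 match, TGAGTCA, lies at 46 to 40 bases and a C/EBP match at 148 to 141 bases before the start. Saa3 holds 1 C/EBP match, Ngp 2, Ltf 1 and Camp none of the 3 motifs. Over all 27025 genes with such a stretch, 4.57% held the AP-1 motif, 5.84% the C/EBP motif and 12.5% the NF-kB motif. Over the 6573 genes of the array with a stretch, the shares were 3.54%, 5.26% and 16.4%. Of the 70 raised genes with a stretch, 8.57% (6) held AP-1, 8.57% (6) C/EBP and 17.1% (12) NF-kB. Of the 53 lowered genes, 3.77% (2) held AP-1, 7.55% (4) C/EBP and 22.6% (12) NF-kB. A match is a run of letters and not a shown binding site.

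Levels are log2 of the deposited intensity, and a difference of 1 is a factor of 2. A fold is given only where both group means were above 6.85, the 95th percentile of 34 negative control probe sets; elsewhere only the log2 difference is given, which may understate the change. Both means exceeded that level for 30 of the 93 raised and 39 of the 73 lowered genes, while for 30 and 19 neither mean did. Array medians were 61.39 to 62.97 intensity units at day 18 and 58.62 to 62.68 at day 0, and arrays of a day correlated at r of 0.988 to 0.995 and 0.941 to 0.993. The log2 gap between 3′ and 5′ beta-actin probe sets, a sign of RNA integrity and amplification length, was 3.31, 3.51 and 3.42 at day 18 and 3.5, 2.90, 2.81 and 2.73 at day 0. Day 0 replicates 2 to 4 lay below every day 18 array, and day 0 replicate 1 lay among them. With that gap as a covariate 60 genes were higher and 44 lower. Of the 79 genes past the threshold that are named here, 26 missed it with the covariate (limma adjusted p of 0.0524 to 0.2) and 53 kept their call. The 26 were Arg1, Coch, Cp, Nr1d1, Cpe, Saa2, Cxcl1, Ccl7, Ccl6, Chil3, Clu, Chad, Tnfsf11, Top2a, Cdk1, Isg15, Ifit1, Lpl, Scd1, Ephx1, Hmox1, Bmp6, Bmp4, Il7r, Cst3 and Atp5o. Marker genes for muscle, named after their values were seen, were well above background. At day 18 Acta1 (skeletal actin) read 11.82 to 12.08 and Ckm (muscle creatine kinase) 9.10 to 9.46. Col1a1 (type I collagen), named likewise, read 12.21 to 12.57 at day 18, and 9.92 to 11.11 in cells of synovial fluid. Of 7 measured osteoblast and bone matrix genes, 0 had a day 18 or day 0 mean above background. Col1a1 alone therefore does not show bone RNA. The cartilage collagen gene Col2a1 was close to background at 4.82 to 5.35 at day 18 and 4.69 to 5.63 at day 0. In whole tissue, fewer cells of a type and less RNA per cell cannot be told apart.

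One day 0 array stood apart. Day 0 replicate 1 read the liver gene Alb (albumin) at 8.95, against 4.48, 4.37 and 4.78 on the day 18 arrays and 5.19, 5.03 and 4.79 on the other day 0 arrays. It was the highest day 0 array for 14 of 16 liver genes, and the mean of that list was 6.84 there, 4.95 to 4.97 at day 18 and 5.08 to 5.21 on the other day 0 arrays. Replicate 1 also read Apoa1 (apolipoprotein A-I) at 8.98 and Fgb (fibrinogen beta chain) at 6.23, while Ahsg and Ttr, secreted liver proteins, were 6.78 and 5.39. Apoa1, Fgb, Ttr and Col2a1 were named after their values were seen. None of the 16 liver genes passed the test in limma, with 1 lower at an unadjusted p under 0.05, while Ces1d and Cp, which liver also makes but which are not on that list, were lowered. Leaving out the 4 arrays with Alb raised, named next, their limma differences were -1.24 for Ces1d (adjusted p = 0.00547) and -1.62 for Cp (adjusted p = 0.034). Alb was also raised on replicate 1 of day 1 (6.39), day 7 (8.41) and day 12 (10.65). Without these 4 arrays 94 genes were higher and 103 lower, of which 135 were among the 166.

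**Figure D1:**
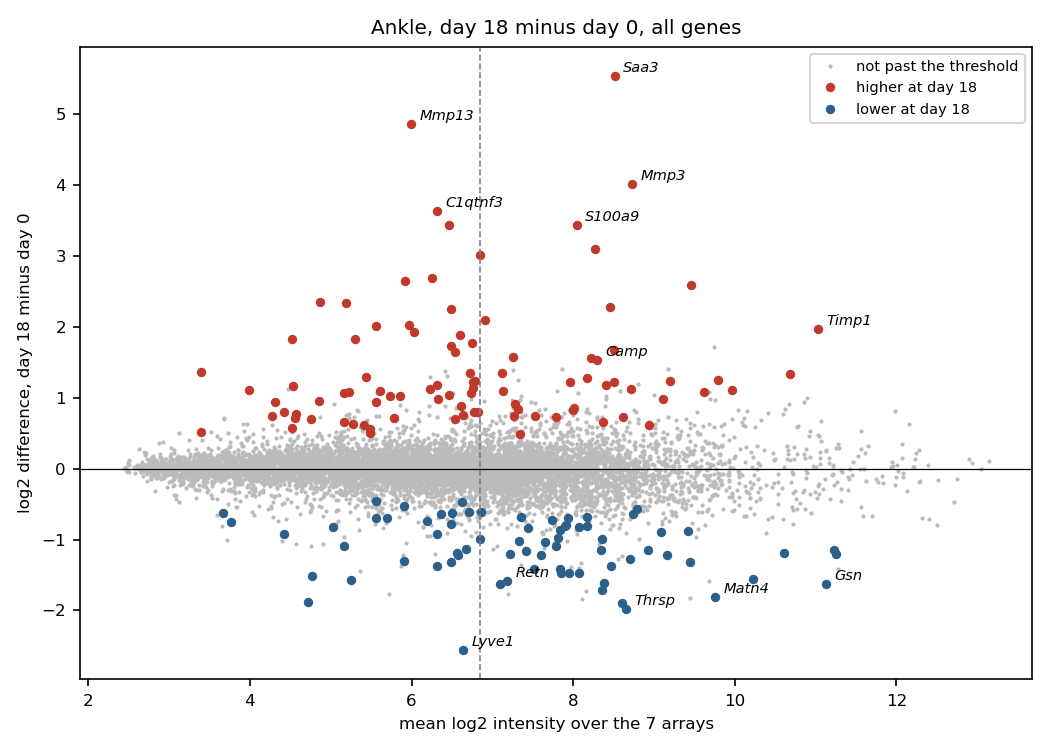
Log2 difference of day 18 minus day 0 (vertical) against the mean log2 intensity of the 7 arrays (horizontal) for 8252 genes, with the dashed line at the background level of 6.85. The 93 raised genes (red) reach 5.54 and the 73 lowered genes (blue) reach -2.56, and genes past the threshold lie on both sides of the background level.

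The median absolute difference was 1.12 for raised and 1.09 for lowered genes. Among raised genes 59 of 93 differed by over 1 and 18 by over 2, and among lowered genes 40 of 73 differed by over 1 and 1 by over 2. All arrays of day 18 lay beyond all arrays of day 0 for 165 of the 166 genes, and the same held for 14.7% of all 8252 genes. The exception was Clec4a2, a myeloid lectin, named after its values were seen. For 51 of the 166 (35 raised, 16 lowered) the call stood whichever of the 7 arrays was left out. Leaving out day 18 replicate 3 left 56 calls (39 raised, 17 lowered), the fewest. The count was 82 without day 18 replicate 1, 94 without day 18 replicate 2, 89 without day 0 replicate 3 and 102 without day 0 replicate 4. It was 147 without day 0 replicate 1 and 227 without day 0 replicate 2.

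The largest rises belonged to an acute phase gene and to matrix metalloproteinases. Saa3, an acute phase protein made locally in inflamed tissue, read 11.69, 11.54 and 11.81 at day 18, against 5.81, 6.77, 5.52 and 6.48 at day 0. The day 18 arrays were tight and far from day 0, a log2 difference of 5.54 ± 0.35 (SE, limma adjusted p = 6.65e-08). Saa2, its relative known mainly from liver, read 8.49, 8.31 and 8.59 at day 18 and 8.11, 7.54, 7.42 and 7.51 at day 0, with the highest day 0 value on replicate 1. Its rise of 0.82 ± 0.21 (limma adjusted p = 0.0466) was called in only 1 of the 7 fits that left out an array, the one without day 0 replicate 1, and reached 0.235 without day 18 replicate 3. Haptoglobin, Hp, did not pass (0.81 ± 0.22, limma adjusted p = 0.0691). Without day 0 replicate 1, the array with liver transcripts, Hp passed (limma adjusted p = 0.0381). In the other fits that left out an array it did not (0.109 to 0.359). Against that list's other calls Cp, the copper carrier ceruloplasmin, fell, at 7.72, 7.55 and 6.87 at day 18 and 9.37, 9.74, 8.52 and 8.75 at day 0, which is 3.28-fold lower (limma adjusted p = 0.028). The Cp call stood only without day 0 replicate 3 or 4, and its adjusted p was 0.203 without day 18 replicate 3.

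Matrix proteases and their inhibitors gave 5 raised and 0 lowered genes of 21 measured (23.8% called, against 2.01% of all genes), and the same count of 5 in every fit that left out an array. The list's median difference was 0.15, against -0.0021 over all genes, so most members lay near 0. Mmp13, collagenase 3, which cuts cartilage collagen, read 8.72, 8.23 and 9.37 at day 18, against 3.66, 4.41, 3.51 and 4.09 at day 0. Every day 0 array lay below the background level and every day 18 array above it (4.85 ± 0.33, limma adjusted p = 8.92e-08). Mmp3, stromelysin 1, which cuts proteoglycan and activates other proteases, read 11.01, 10.87 and 11.17 against 6.65, 7.4, 7.26 and 6.72, and was 16.1-fold higher at day 18 (limma adjusted p = 1.43e-07). Mmp9, gelatinase B of neutrophils and osteoclasts, stood at 8.60, 8.13 and 8.97 at day 18 and at 5.26 to 5.78 at day 0 (3.02 ± 0.25, limma adjusted p = 9.34e-07). Another probe set of Mmp9 differed by 1.01.

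The inhibitor Timp1 read 12.12, 11.90 and 12.43 at day 18 and 10.25, 10.10, 10.01 and 10.40 at day 0, a 3.89-fold rise (limma adjusted p = 0.000107). A second Timp1 probe set differed by only 0.20. Adam8, a protease of leukocytes and osteoclasts, rose by 1.35 ± 0.16 (limma adjusted p = 9.76e-05). Mmp14, the membrane protease that activates gelatinase A, did not pass, at 8.78, 8.63 and 8.91 against 7.77, 8.19, 8.30 and 7.92 (limma adjusted p = 0.0635). Timp1 and Mmp14 were named after their values were seen. Slpi, a secreted inhibitor of neutrophil elastase, was also among the 12 largest rises, at 10.79, 11.05 and 10.95 at day 18 and 8.62, 8.03, 8.34 and 8.37 at day 0. This is 6.02-fold higher (limma adjusted p = 6.22e-06), and its other probe sets differed by 0.44 to 4.67.

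**Figure D2:**
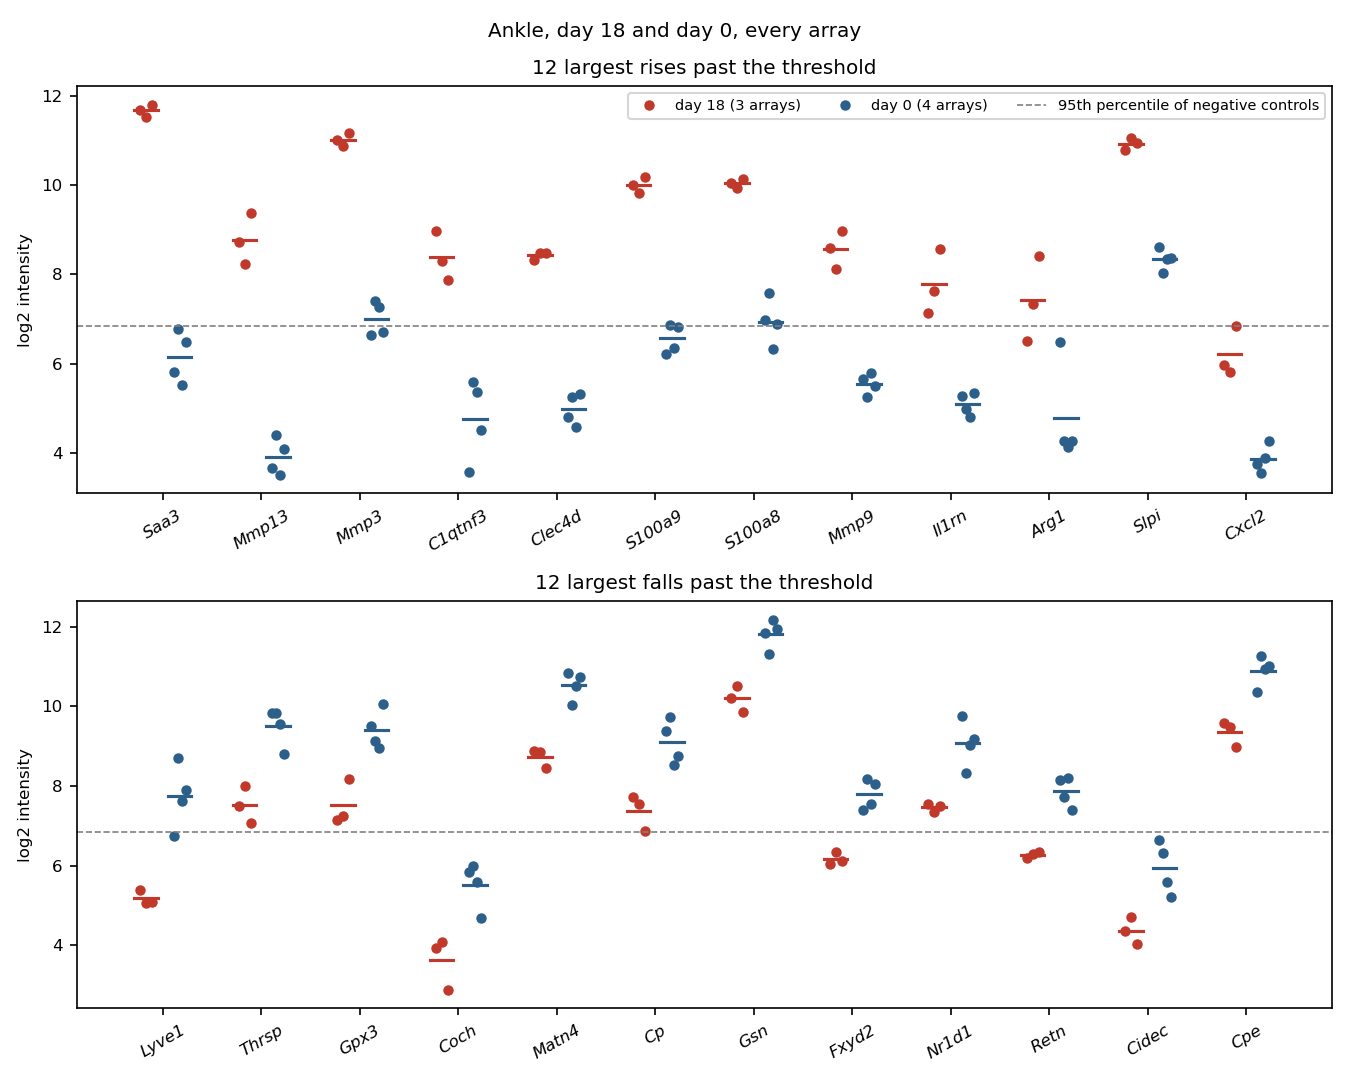
Log2 intensity (vertical) of the 12 largest rises (upper) and 12 largest falls (lower) past the threshold, with each day 18 array (red, left) and each day 0 array (blue, right) as a point, the mean as a bar and the background level of 6.85 as a dashed line. The arrays of the 2 days do not overlap for any of the 24 genes, by the way they were chosen, and Arg1 comes closest, with 6.51 on the lowest day 18 array and 6.49 on day 0 replicate 1.

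Neutrophil genes gave 8 raised and 0 lowered of 19 measured (42.1% called, against 2.01% of all genes), with a median difference of 0.73. The mean of the list was 6.81 to 7.09 on the day 18 arrays and 5.71 to 5.89 on the day 0 arrays. The count was 5 to 8 when an array was left out, lowest without day 18 replicate 3. The 8 genes include Mmp9, already counted among the matrix proteases. S100a9 read 10.01, 9.83 and 10.18 at day 18, against 6.22, 6.87, 6.36 and 6.83 at day 0 (3.43 ± 0.30, limma adjusted p = 1.21e-06). Its partner S100a8, with which it forms the alarmin calprotectin, read 10.06, 9.93 and 10.13 against 6.98, 7.58, 6.33 and 6.89, an 8.54-fold rise (limma adjusted p = 1.21e-06). Both genes were tight at day 18 and clear of every day 0 array. Clec4d, a myeloid lectin receptor, rose by 3.44 ± 0.30 (limma adjusted p = 1.21e-06). The receptor for granulocyte colony-stimulating factor, Csf3r, did not pass (0.73 ± 0.21, limma adjusted p = 0.092) and was named after its values were seen.

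Within that list 3 genes of secondary granules were also above their day 7 level, by which they were chosen. These proteins (cathelicidin, neutrophilic granule protein and lactoferrin) are made in neutrophil precursors and stored for release. Camp read 9.25, 8.77 and 9.48 at day 18, against 7.4, 7.38, 7.85 and 8.03 at day 7 and 7.75, 7.53, 7.72 and 7.56 at day 0. Ngp read 8.14, 7.53 and 8.81 at day 18, against 6.43, 5.69, 6.46 and 7.1 at day 7 and 6.46, 6.81, 6.65 and 6.41 at day 0. Ltf read 6.83, 6.92 and 7.60 at day 18, against 5.91, 5.92, 5.80 and 6.30 at day 7 and 6.12, 6.18, 6.37 and 6.26 at day 0. For each of the 3 genes every day 18 array lay above every array of days 7 and 0. The genes were chosen by these differences, which favours such a gap. Arrays of days 18 and 0 did not overlap for 14.7% of all 8252 genes, and the share for days 18 and 7 was not computed.

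Against day 0, Camp was 2.88-fold higher (limma adjusted p = 0.00141), Ngp higher by 1.58 ± 0.30 (0.00793) and Ltf by 0.88 ± 0.17 (0.00692). Against day 7 the differences were 1.5 ± 0.24 for Camp (limma adjusted p = 0.019), 1.74 ± 0.30 for Ngp (0.0433) and 1.13 ± 0.17 for Ltf (0.0136). These 2 comparisons share the day 18 arrays. Against day 7, 0 genes passed without day 7 replicate 2 or 3, or with the arrays of days 18 and 7 alone. Without day 18 replicate 3, the highest array for all 3 genes, the day 0 calls of Ngp (adjusted p = 0.0906) and Ltf (0.0597) were lost. Genes of primary granules, made earlier in the same precursors, did not pass against day 0: Elane 0.04 ± 0.18, Mpo 0.12 ± 0.16, Prtn3 0.19 ± 0.14 and Ctsg -0.07 ± 0.12, with limma adjusted p of 0.673 to 0.97. All 4, named after their values were seen, had group means under the background level. In cells of synovial fluid at day 18, Camp read 7.28 to 7.46 over 3 arrays, and in blood leukocytes 7.74 to 7.95 over 2 arrays at day 18 and 7.77 to 7.91 over 3 arrays at day 0. Those preparations differ from whole ankle, so no comparison was made with them.

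**Figure D3:**
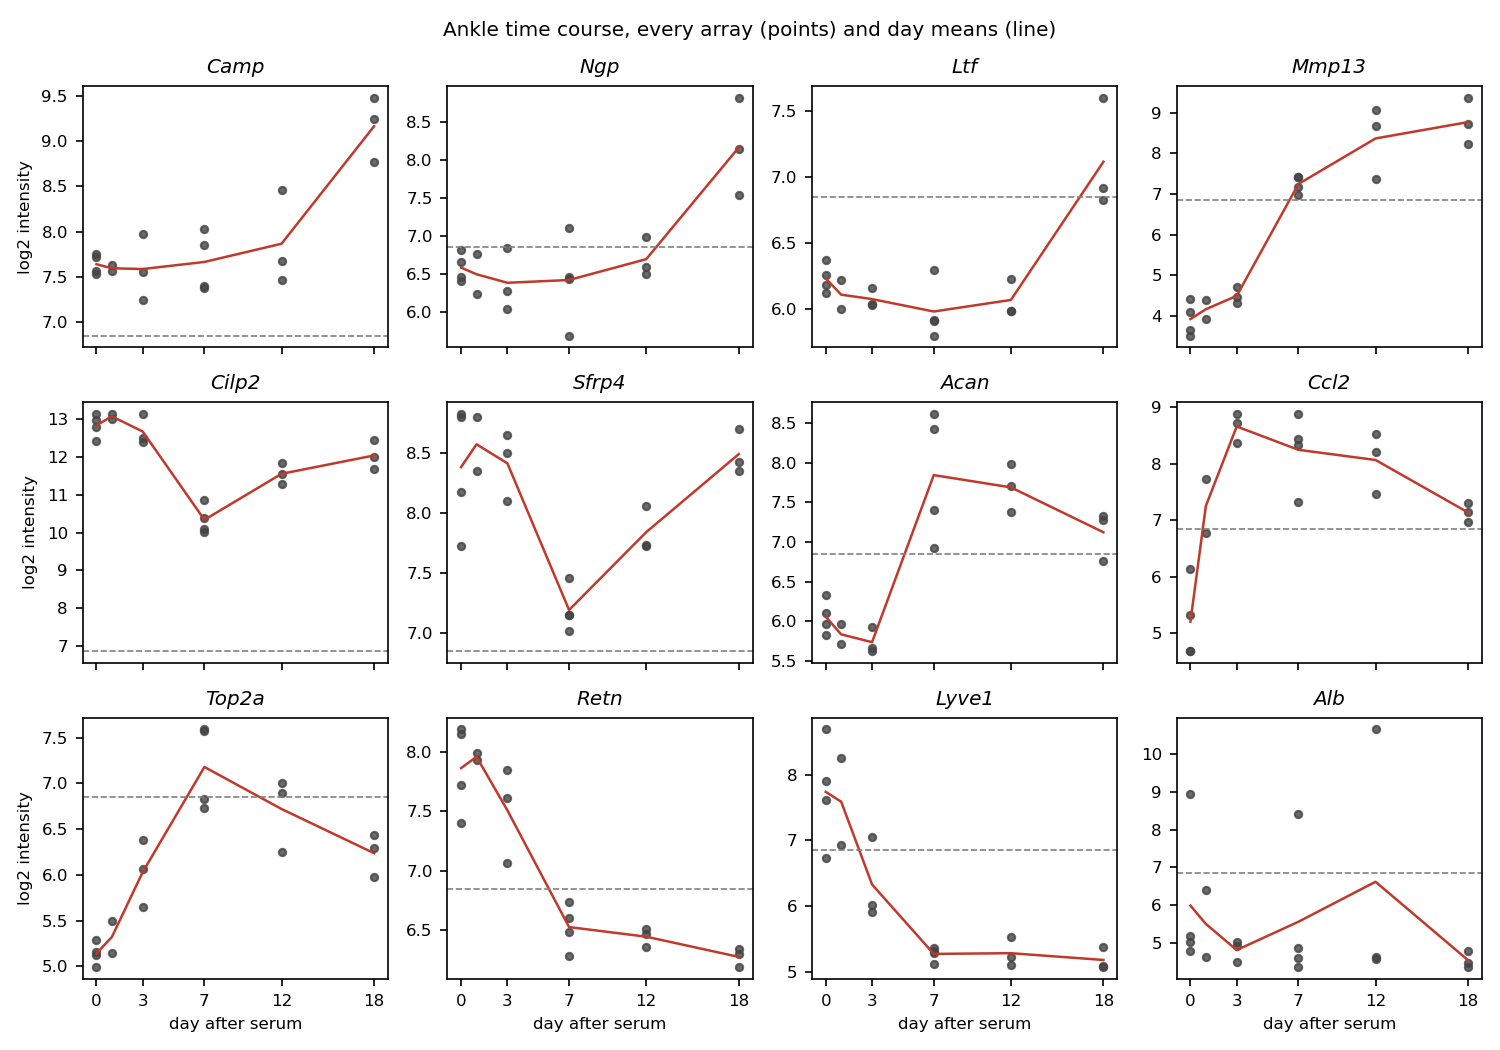
Log2 intensity (vertical) of 12 genes on every ankle array (points) and the mean of each day (line) against the day after serum (horizontal), with the background level of 6.85 dashed. Camp, Ngp and Ltf are highest on the 3 day 18 arrays, Cilp2 and Sfrp4 are lowest at day 7, and Alb is raised on single arrays of days 0, 1, 7 and 12.

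Some chemokines that attract neutrophils and monocytes were also above their day 0 level. Of CXCR2, the receptor that guides neutrophils, and its ligands, 3 of 4 measured genes rose (75% called, against 2.01% of all genes). Cxcl2 read 5.97, 5.81 and 6.85 at day 18, against 3.74, 3.56, 3.89 and 4.26 at day 0 (2.34 ± 0.24, limma adjusted p = 9.89e-06), all at or under the background level. Cxcl5 differed by 2.34 ± 0.45 (limma adjusted p = 0.0082), which did not hold once day 18 replicate 3 was left out (0.0795). Cxcl1 read 8.29, 7.42 and 8.59 against 6.07, 5.82, 4.79 and 7.35 (2.09 ± 0.47, limma adjusted p = 0.0255), with the lowest day 18 and highest day 0 arrays close to each other. Leaving out day 0 replicate 3 (0.0811) or day 18 replicates 1 (0.114) or 3 (0.173) ended its call. Cxcr2 itself was under background on every array, at 4.22, 4.07 and 4.03 at day 18 and 3.90, 3.68, 4.20 and 3.82 at day 0 (0.21 ± 0.11, limma adjusted p = 0.524).

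CC chemokines gave 3 raised and 0 lowered of 14 measured (21.4% called, against 2.01% of all genes), with a median difference of 0.20. Ccl2, which draws monocytes, read 7.14, 6.98 and 7.3 at day 18, against 4.68, 6.14, 4.69 and 5.32 at day 0 (1.93 ± 0.38, limma adjusted p = 0.00841). The day 18 values lay between the other 2 days shown, since day 7 read 8.34, 8.44, 8.89 and 7.33, but the difference of day 18 from day 7 did not pass (-1.11 ± 0.38, limma adjusted p = 0.667). Ccl7, its neighbour in function, rose by 1.17 ± 0.26 against day 0 (limma adjusted p = 0.0252) at levels under background. Ccl6 was 1.78-fold higher (limma adjusted p = 0.0256), and Ccl3 did not pass (limma adjusted p = 0.054). The list had 1 call without the arrays with liver transcripts and 1 with the beta-actin gap as a covariate. All 3 were lost without day 18 replicate 3, with adjusted p of 0.065 for Ccl2, 0.187 for Ccl7 and 0.0767 for Ccl6. The Ccl7 call otherwise stood only without day 0 replicate 2 or 4 (up to 0.0773 in the rest) and the Ccl6 call only without day 0 replicate 2 (up to 0.153).

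Genes of interleukin 1, TNF and interleukin 6 type signalling gave 3 raised and 0 lowered of 26 measured. The share called was 11.5%, against 2.01% of all genes, and the median was 0.12. Il1b, the inflammatory cytokine, read 6.65, 6.78 and 7.92 at day 18, against 5.29, 4.72, 5.17 and 5.21 at day 0 (2.02 ± 0.28, limma adjusted p = 0.000318). Il1rn, the antagonist of the interleukin 1 receptor, read 7.13, 7.64 and 8.58 against 5.27, 4.98, 4.80 and 5.35 (2.68 ± 0.31, limma adjusted p = 5.45e-05). Agonist and antagonist were thus both above day 0, each highest on day 18 replicate 3. Il13ra1, a receptor chain for interleukins 4 and 13, rose by 1.73 ± 0.27 (limma adjusted p = 0.00148). The TNF receptor Tnfrsf1b did not pass (0.85 ± 0.25, limma adjusted p = 0.0973).

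Monocyte and macrophage genes gave 5 raised and 0 lowered of 24 measured (20.8% called, against 2.01% of all genes), with a median of 0.25. Mpeg1, a pore-forming protein of macrophages, read 9.50, 9.88 and 9.89 at day 18, against 7.29, 7.81, 7.17 and 7.66 at day 0, a 4.84-fold rise (limma adjusted p = 6.43e-07), though a second probe set differed by 0.02. The scavenger receptor Msr1 rose by 1.22 ± 0.18 (limma adjusted p = 0.000661), with 0.13 on its second probe set. Arg1, arginase 1, which is abundant in liver and in some macrophages, read 6.51, 7.34 and 8.41 at day 18 and 6.49, 4.26, 4.13 and 4.26 at day 0. The high day 0 value is on the array with liver transcripts. Arg1 differed by 2.64 ± 0.60 (limma adjusted p = 0.0263), while leaving out the 4 arrays that carry liver transcripts gave 3.21 (0.00134). Its call held without day 0 replicate 1 or day 18 replicate 1; in the other fits that left out 1 array, the adjusted p was 0.0526 to 0.207, highest without day 18 replicate 3.

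Chil3, a chitinase-like protein of myeloid cells, rose by 1.18 ± 0.26 (limma adjusted p = 0.0239) and Cd53, a leukocyte tetraspanin, by 1.02 ± 0.22 (0.0212). Both stood only in 3 of the 7 fits without an array, with adjusted p up to 0.199 and 0.164 without day 18 replicate 3. The other arrays whose removal ended a call were day 0 replicate 3 and day 18 replicate 1 for both (0.0513 to 0.0751 with the rest), day 0 replicate 4 for Chil3 and day 18 replicate 2 for Cd53. Folr2 and Fcna, expressed by resident macrophages and named after their values were seen, fell. Neither is on the monocyte and macrophage list, where 0 genes were lowered and 17 of 24 differences were above 0. Resident macrophage genes were not examined as a set. Folr2 read 7.70, 7.55 and 7.54 at day 18, against 8.73, 8.27, 8.33 and 8.34 at day 0, 1.76-fold lower (limma adjusted p = 0.00787, and 0.0598 without day 18 replicate 3). Fcna, a ficolin, differed by -0.79 ± 0.16 (limma adjusted p = 0.0145), lost without day 18 replicate 2 (0.0708) or replicate 3 (0.14).

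The largest fall was in Lyve1, the hyaluronan receptor of lymphatic endothelium and of some resident macrophages. It read 5.38, 5.07 and 5.09 at day 18, against 6.74, 8.69, 7.62 and 7.91 at day 0 (-2.56 ± 0.36, limma adjusted p = 0.000447). The day 18 values were under background and close to each other, and the call stood whichever array was left out. Lyve1 was the 1 lowered gene of 21 measured for blood and lymphatic endothelium (4.76% called, median 0.04), with 0 raised.

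Fat cell genes formed the largest lowered group, with 8 lowered and 0 raised of 20 measured (40% called, against 2.01% of all genes). None of the 20 differences was above 0, and the median was -0.89, against -0.0021 over all genes. The mean of the list was 6.71 to 6.99 on the day 18 arrays and 7.32 to 7.87 on the day 0 arrays, which do not overlap. Retn, the adipokine resistin, read 6.19, 6.30 and 6.34 at day 18, against 8.15, 7.72, 8.19 and 7.4 at day 0 (-1.59 ± 0.19, limma adjusted p = 9.76e-05). Thrsp, a regulator of fatty acid synthesis, read 7.49, 7.99 and 7.07 against 9.83, 9.82, 9.55 and 8.79, 3.94-fold lower (limma adjusted p = 0.0145). Cidec, a lipid droplet protein, read 4.35, 4.70 and 4.02 against 6.63, 6.31, 5.58 and 5.21, all under background (-1.57 ± 0.33, limma adjusted p = 0.0146).

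The lipases Lipe (hormone-sensitive lipase) and Pnpla2 (adipose triglyceride lipase) both fell. Lipe read 6.88, 6.80 and 6.60 at day 18, against 8.32, 7.92, 7.99 and 7.43 at day 0 (-1.16 ± 0.21, limma adjusted p = 0.00564). Pnpla2 read 7.68, 7.96 and 7.73 against 9.23, 8.56, 8.71 and 8.62, 1.98-fold lower (limma adjusted p = 0.0112). Car3, carbonic anhydrase 3, abundant in fat and slow muscle, was 2.27-fold lower (limma adjusted p = 0.00793). Lpl (lipoprotein lipase) and Scd1 (a fatty acid desaturase) complete the 8. Adiponectin, Adipoq, did not pass at 9.22, 8.99 and 8.14 against 10.68, 10.94, 9.97 and 9.86 (limma adjusted p = 0.062), and leptin, Lep, did not either (limma adjusted p = 0.0646). Fabp4 differed by -0.04 ± 0.28. Adipoq, Lep, Fabp4, Lpl and Scd1 were named after their values were seen.

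Depending on the array left out, 1 to 9 fat cell genes were called, and without day 18 replicate 3 only Retn was. Without that array the adjusted p was 0.125 for Thrsp and for Cidec, 0.0542 for Lipe, 0.076 for Pnpla2, 0.0594 for Car3, 0.296 for Lpl and 0.14 for Scd1. Without day 18 replicate 1 it was 0.0616 for Thrsp, 0.0609 for Cidec, 0.0651 for Pnpla2, 0.0562 for Car3, 0.0722 for Lpl and 0.234 for Scd1. Lpl stood only without day 0 replicate 1 or 4, and Scd1 only without day 0 replicate 4. Other genes of fat storage outside the list, named after their values were seen, kept their calls whichever array was left out. They were Adig (adipogenin) at -1.51 ± 0.20 (limma adjusted p = 0.000227), Plin4 (perilipin 4) at -1.31 ± 0.25 (0.00692) and Mgll (monoglyceride lipase) at 2.33-fold lower (0.0018), with 0.08 on a second Mgll probe set. Adig was under background on every array, at 3.72 to 4.22 at day 18 and 5.15 to 5.66 at day 0. These genes were picked with their calls known, so they add no separate support to the list.

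Of 28 measured muscle genes, limma called 0, with 2 lower at an unadjusted p under 0.05. The median difference was -0.12. Myh1, a fast myosin, read 7.28, 6.98 and 6.93 at day 18 and 7.43, 9.20, 9.85 and 9.11 at day 0 (limma adjusted p = 0.271). Smooth muscle myosin, Myh11, named after its values were seen, fell by 1.31 ± 0.27 (limma adjusted p = 0.0147), which did not hold once day 0 replicate 4 (0.0503) or day 18 replicate 3 (0.132) was left out. Mean levels of the muscle list were 7.12 to 7.31 at day 18 and 7.1 to 7.89 at day 0. Of the 11 erythroid genes 0 were called, with 1 lower at an unadjusted p under 0.05. The haemoglobin gene Hba-a1 read 11.65 to 12.60 at day 18 and 12.38 to 13.05 at day 0, and Alas2, of haem synthesis, differed by -0.62 ± 0.36 (limma adjusted p = 0.559).

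**Figure D4:**
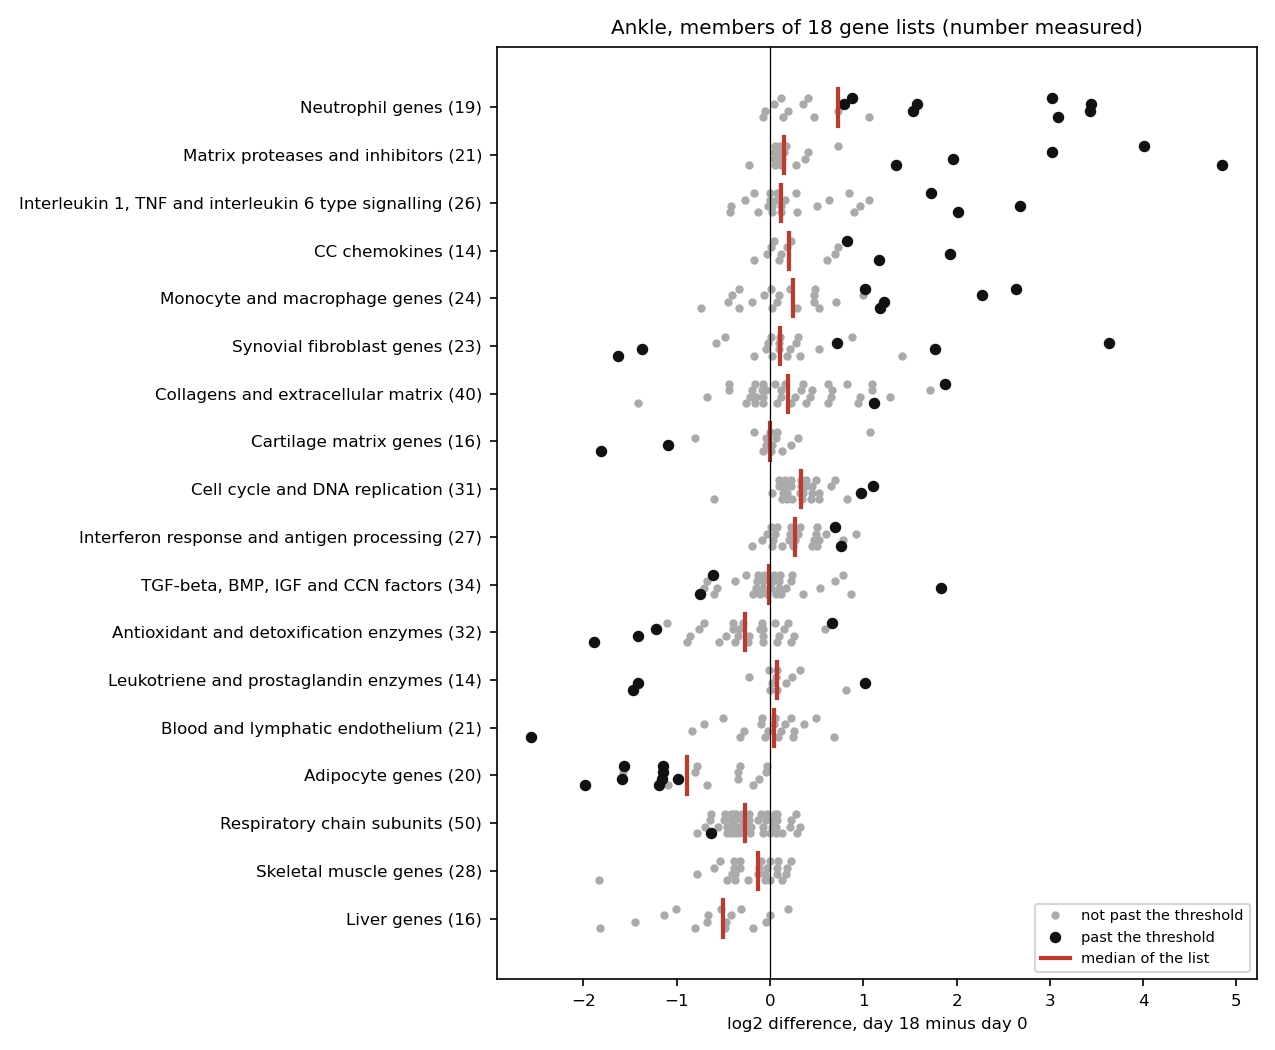
Log2 difference of day 18 minus day 0 (horizontal) of the measured members of 18 gene lists (rows), with members past the threshold in black, others in grey and the median of each list as a red bar. Calls lie only to the right of 0 for neutrophil genes (8) and matrix proteases and inhibitors (5) and only to the left for adipocyte genes (8).

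Among genes of synovial fibroblasts, 3 rose and 2 fell of 23 measured (21.7% called, against 2.01% of all genes), with a median of 0.11. C1qtnf3, a secreted protein of mesenchymal cells, read 8.97, 8.30 and 7.88 at day 18, against 3.57, 5.58, 5.36 and 4.52 at day 0 (3.63 ± 0.46, limma adjusted p = 0.000122). Vcam1, which binds leukocyte integrins, rose by 1.77 ± 0.33 (limma adjusted p = 0.00636), with 0.38 to 0.66 on other probe sets, and podoplanin, Pdpn, by 0.72 ± 0.12 under background (0.00197). Gsn, the actin-severing protein gelsolin, fell at 10.22, 10.52 and 9.85 against 11.85, 11.32, 12.18 and 11.95, 3.1-fold lower (limma adjusted p = 0.00384). Clu, the chaperone clusterin, was 2.58-fold lower (limma adjusted p = 0.0293), lost without day 0 replicate 2 (0.057) or 4 (0.0996) or day 18 replicate 1 (0.13) or 3 (0.203).

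Extracellular matrix genes gave 2 raised and 0 lowered of 40 measured (5% called, against 2.01% of all genes), with a median of 0.19. Tnc, tenascin C, a matrix protein of wounds, read 7.51, 7.43 and 8.08 at day 18, against 5.59, 6.20, 5.72 and 5.65 at day 0 (1.88 ± 0.22, limma adjusted p = 7.66e-05), and a second probe set differed by 2.40. Lamb1, a laminin chain, was 2.17-fold higher (limma adjusted p = 0.00332). Fbln2 and Thbs2 did not pass (limma adjusted p = 0.0668 and 0.0646), and Col1a1 differed by 0.22 ± 0.34. Col1a1 was low on day 0 replicate 1, at 11.01, while the other day 0 arrays read 12.47 to 12.57 and day 18 read 12.21 to 12.57. In the growth factor list 1 of 34 rose and 2 fell (8.82% called, against 2.01% of all genes). Ccn4, a secreted CCN protein, read 6.14, 6.38 and 6.51 against 4.65, 4.47, 4.55 and 4.38, under background but tight in both groups (1.83 ± 0.17, limma adjusted p = 3.12e-06). Bmp6 and Bmp4, bone morphogenetic proteins, fell by 0.75 ± 0.15 and 0.61 ± 0.14 (limma adjusted p = 0.0145 and 0.0293). Bmp6 lost its call without day 0 replicate 4 (0.052) or day 18 replicate 1 (0.0902) or 3 (0.0711), and Bmp4 stood only without day 0 replicate 2 or day 18 replicate 1 (up to 0.176 in the rest).

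Cartilage matrix genes gave 0 raised and 2 lowered of 16 measured (12.5% called, against 2.01% of all genes), with a median of 0.00. Matn4, matrilin 4, read 8.87, 8.85 and 8.46 at day 18, against 10.84, 10.03, 10.52 and 10.74 at day 0, 3.5-fold lower (limma adjusted p = 0.0175). Chad, chondroadherin, which anchors chondrocytes to matrix, read 7.11, 7.12 and 7.24 against 7.94, 7.89, 8.47 and 8.70, 2.13-fold lower (limma adjusted p = 0.0155). Both groups stood apart on every array, yet both calls were kept only without day 0 replicate 1 or 2 and reached 0.125 for Matn4 and 0.072 for Chad otherwise. The proteoglycan aggrecan, Acan, read 7.28, 7.33 and 6.76 at day 18 and 6.11, 5.96, 5.83 and 6.33 at day 0, and did not pass (1.07 ± 0.31, limma adjusted p = 0.0899).

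A pair of genes past the threshold against day 7 did not pass it against day 0 (both comparisons share the day 18 arrays). Cilp2, a cartilage intermediate layer protein, read 12.00, 12.45 and 11.68 at day 18, 10.86, 10.39, 10.01 and 10.09 at day 7, and 12.42, 12.81, 12.99 and 13.14 at day 0. Day 18 was above every day 7 array (1.70 ± 0.26, limma adjusted p = 0.0136) and its difference from day 0 did not pass (-0.80 ± 0.26, limma adjusted p = 0.148). Sfrp4, a secreted Wnt antagonist named after its values were seen, read 8.70, 8.35 and 8.43 at day 18, 7.15, 7.46, 7.15 and 7.02 at day 7, and 7.73, 8.83, 8.80 and 8.18 at day 0. Its difference was 1.3 ± 0.23 from day 7 (limma adjusted p = 0.0456) and 0.11 ± 0.23 from day 0 (0.936). At day 7 both genes were below day 0, by limma differences of -2.50 for Cilp2 (adjusted p = 2.84e-06) and -1.19 for Sfrp4 (0.00197). Another Wnt antagonist, Dkk3, differed from day 0 by 0.96 ± 0.25 (limma adjusted p = 0.0626). Camp, Ngp, Ltf, Cilp2 and Sfrp4 were the 5 genes past the threshold against day 7, and an unadjusted p under 0.05 was reached by 245 genes above and 191 below their day 7 level. The count was 0 without day 7 replicate 2 or replicate 3, 1 without day 18 replicate 1, and 3 without day 18 replicate 2 or replicate 3. Against day 12, where limma called 0 genes, 93 had an unadjusted p under 0.05, and 1 was called without day 18 replicate 3.

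Over days 3, 7, 12 and 18, with day 1 left out, the day of the most extreme mean was noted for each called gene. Of the 93 raised genes 4 had their highest day mean at day 3, 24 at day 7, 30 at day 12, while 35 peaked at day 18, the last day sampled. The lowest day mean of the 73 lowered genes fell on day 3 for 1, day 7 for 27, day 12 for 11 and day 18 for 34. The genes were chosen by their day 18 level, which favours day 18 in these counts, and the same counts over all genes were not made. The median difference of day 18 from day 7 was -0.02 in each group, with a range of -1.19 to 1.74 for raised and -0.75 to 0.79 for lowered genes. Mmp13 was among those highest at day 18, with 6.98, 7.41, 7.17 and 7.43 at day 7, but 1.53 ± 0.33 between these days did not pass (limma adjusted p = 0.199). Top2a, topoisomerase II of dividing cells, read 6.44, 5.98 and 6.29 at day 18, 6.73, 7.59, 7.57 and 6.83 at day 7, and 5.16, 5.29, 4.99 and 5.12 at day 0.

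Cell cycle and DNA replication genes gave 2 raised and 0 lowered of 31 measured (6.45% called, against 2.01% of all genes). Of the 31 differences 30 were above 0 (median 0.33), against 4090 of all 8252. Top2a rose by 1.1 ± 0.24 (limma adjusted p = 0.0194) and Cdk1, the mitotic kinase, by 0.98 ± 0.21 (0.0207). With the beta-actin gap as a covariate neither passed (0.0803 and 0.0906), and the list had 0 calls. Both were also lost without day 0 replicate 3 (0.065 and 0.0564) or 4 (0.0514 and 0.0515) and without day 18 replicate 1 (0.112 and 0.0715) or 3 (0.114 and 0.167). Interferon response genes gave 2 raised of 27 (7.41% called, against 2.01% of all genes), with a list median of 0.27. Isg15 rose by 0.76 ± 0.17 (limma adjusted p = 0.0263) and Ifit1 by 0.70 ± 0.17 (0.0369). The Isg15 call stood only without day 0 replicate 1 and the Ifit1 call only without day 0 replicate 3 (up to 0.135 and 0.146 in the rest). With the beta-actin gap as a covariate Isg15 (0.0861) and Ifit1 (0.0524) did not pass, and this list too had 0 calls.

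Bone-resorbing cells are driven by RANK ligand. Its gene Tnfsf11 was the 1 raised of 12 genes of that axis (8.33% called, against 2.01% of all genes). Tnfsf11 read 4.52, 4.05 and 5.29 at day 18, against 3.90, 3.27, 3.29 and 3.60 at day 0, under background on every array (1.1 ± 0.23, limma adjusted p = 0.0145). Its call was lost without day 0 replicate 3 (0.0555) or day 18 replicate 3 (0.12). Ctsk, the collagen-cutting cathepsin of osteoclasts, read 11.51, 11.47 and 11.38 against 10.58, 11.00, 10.64 and 10.90 and did not pass (limma adjusted p = 0.158). Among cathepsins and cystatins, the inhibitor Cstb (cystatin B) was 2.12-fold higher (limma adjusted p = 0.00763, and 0.0596 without day 18 replicate 2). Cst3 (cystatin C) was 2.3-fold lower (limma adjusted p = 0.0264), a call kept only without day 0 replicate 2 or day 18 replicate 2 (0.224 without day 18 replicate 3).

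Antioxidant and detoxification enzymes gave 1 raised and 3 lowered of 32 measured (12.5% called, against 2.01% of all genes), with a median of -0.27. Gpx3, the secreted glutathione peroxidase, read 7.15, 7.24 and 8.17 at day 18, against 9.50, 9.12, 8.95 and 10.06 at day 0, 3.71-fold lower (limma adjusted p = 0.00197). Ces1d, a carboxylesterase of fat and liver, read 6.62, 6.84 and 6.67 against 8.65, 8.03, 8.19 and 7.63 (-1.41 ± 0.23, limma adjusted p = 0.00197). Ephx1, an epoxide hydrolase, was 2.33-fold lower (limma adjusted p = 0.0155), lost without day 0 replicate 3 (0.0522) or 4 (0.0515) or day 18 replicate 3 (0.135). Hmox1, haem oxygenase 1, was 1.58-fold higher (limma adjusted p = 0.0255), kept only without day 0 replicate 2 or 4 (up to 0.134 in the rest). The detoxifying enzyme Cyp2e1, of fat and liver, read 8.41, 8.46 and 8.35 at day 18 and 10.59, 10.61, 9.89 and 9.82 at day 0, yet did not pass (-1.82 ± 0.65, limma adjusted p = 0.21).

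Lipid mediator genes gave 1 raised and 2 lowered of 14 measured (21.4% called, against 2.01% of all genes). Prostacyclin synthase, Ptgis, read 7.32, 7.50 and 6.28 at day 18, against 8.42, 8.75, 8.39 and 8.26 at day 0, 2.68-fold lower (limma adjusted p = 0.00662, and 0.0594 without day 18 replicate 3). Leukotriene C4 synthase, Ltc4s, was 2.77-fold lower (limma adjusted p = 0.0228), with -0.03 on a second probe set, and its call stood only without day 0 replicate 2 (up to 0.11 in the rest). The prostaglandin E2 receptor gene Ptger4 rose by 1.02 ± 0.21 (limma adjusted p = 0.0116), lost without day 18 replicate 1 (0.0576) or 3 (0.0795).

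The remaining named falls were of mixed function. Fxyd2, a subunit that modulates the sodium pump, read 6.04, 6.35 and 6.11 at day 18, against 7.39, 8.17, 7.55 and 8.04 at day 0 (-1.62 ± 0.20, limma adjusted p = 0.000107). Cpe, carboxypeptidase E, which trims prohormones, read 9.58, 9.48 and 8.97 against 10.36, 11.27, 10.94 and 11.01, 2.94-fold lower (limma adjusted p = 0.0174). Its call was lost without day 0 replicate 3 or 4 or day 18 replicate 2 (0.0512 to 0.0523) or day 18 replicate 3 (0.139). Coch, cochlin, an extracellular protein, was under background in both groups (-1.88 ± 0.44, limma adjusted p = 0.0302) and stood only without day 0 replicate 4 (0.235 without day 18 replicate 3). Nr1d1, the clock repressor REV-ERB alpha, was 3.07-fold lower (limma adjusted p = 0.0395), kept only without day 0 replicate 2 (up to 0.158 in the rest). The clock output gene Dbp did not pass (-0.95 ± 0.32, limma adjusted p = 0.18). Hours of sampling are not given in the labels.

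Several lists had a single member past the threshold, where 2.01% of all genes were called. Each is given as a gene and not as a result about its list. For the respiratory chain the share called was 2%, near that of all genes. Its median difference was -0.27, and 14 of 50 differences were above 0, against 4090 of all 8252 genes. At an unadjusted limma p under 0.05, 13 of its genes were lower and 0 higher, against 521 and 450 of all genes. Hif1a, the hypoxia-inducible factor, was 2.51-fold higher (limma adjusted p = 0.00708, and 0.0645 without day 18 replicate 3), the 1 called of 22 glycolysis and hypoxia genes. Hdc, histidine decarboxylase, which makes histamine in mast cells, basophils and neutrophils, read 7.09, 7.24 and 8.12 at day 18 and 5.72 to 5.92 at day 0 (1.65 ± 0.26, limma adjusted p = 0.00134), the 1 called of 12 mast cell genes. Il7r, the interleukin 7 receptor, was the 1 called of 16 T cell genes (0.57 ± 0.13, limma adjusted p = 0.0228), lost without day 0 replicate 3 (0.0564) or 4 (0.0515) or day 18 replicate 2 (0.114) or 3 (0.162). S100b, of Schwann cells and cartilage, fell by 1.21 ± 0.22 (limma adjusted p = 0.00483, and 0.0594 without day 18 replicate 3), the 1 called of 9 nerve genes. The ATP synthase subunit Atp5o was 1.55-fold lower (limma adjusted p = 0.0477), the 1 called of 50 respiratory chain genes, and stood only without day 0 replicate 1 or 2 (up to 0.198 in the rest). In limma 0 of 17 chemokine receptors, 0 of 10 genes of MHC class II presentation and 0 of 18 B cell genes were called, with 2, 0 and 5 at an unadjusted p under 0.05.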

How the data were processed

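The labels describe whole-ankle RNA, with an SDS and urea extraction in the sample descriptions and Trizol in the extraction protocol field, amplified in 2 rounds and hybridised to Affymetrix mouse arrays (MG-U74Av2). The description of day 0 replicate 2 opens with a short name unlike its title; its other labels place it at day 0. The deposited table holds linear intensity values that the authors made by RMA, per the submitters' processing notes, which name no version. All 12488 probe sets and 49 arrays had values. Probe sets with 1 symbol were kept, and of several for 1 gene, the one brightest on average across the 49 arrays stood for it, leaving 8252 genes.

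From there R 4.3.3 with limma 3.58.1 was used on log2 values (lmFit, then eBayes with an intensity trend) over the 19 ankle arrays, with 1 mean per day, and p-values were adjusted by Benjamini-Hochberg over all genes. Differences are given ± the standard error from limma, as day 18 minus the other day. On simulated data with 8252 genes for day 18 minus day 0, 100% of log2 changes of 2 and 84% of changes of 1 were recovered, and 7.5% of calls were false. The simulated noise was normal and independent for each gene and array, without effects shared by genes of an array such as liver transcripts. These shares therefore need not hold for the real arrays. The number of arrays limits the precision.

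The comparison, its members and the 43 gene lists were chosen with earlier results of these data known. Genes were named by a rule: Alb, Cxcr2, the 12 largest rises and 12 largest falls past the threshold without overlap of arrays, up to 4 members per list by p, members called against their list, and 6 genes most above and 6 most below day 7. Of 45 called genes with more than 1 probe set, every other probe set moved the same way for 35 and at least 1 moved the opposite way for 9. Alternatives were another normalization, centring, filters, floors, probe set means, weights, covariates, a block and each array left out.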

Additional observations from a re-analysis of the deposited data

Results flagged for a closer look

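In the groups of 4 arrays (days 0 and 7), the highest or lowest array of a named gene was set against the others by Dixon's test at 95%, which chance passes in about 1 in 20 groups. Of 226 groups, 12 stood apart (5.31%). Day 0 replicate 1 gave 6 of these, with Alb at 8.95 (others 4.79 to 5.19), Apoa1 at 8.98 (5.69 to 5.92), Fgb at 6.23 (3.92 to 4.18), Arg1 at 6.49 (4.13 to 4.26), Saa2 at 8.11 (7.42 to 7.54) and Col1a1 low at 11.01 (12.47 to 12.57). Day 7 replicate 1 gave 3, with Alb at 8.41 (4.36 to 4.87), Apoa1 at 7.97 (5.60 to 5.78) and Folr2 at 7.89 (7.38 to 7.45). The other 3 were low values at day 7, with Cstb at 9.90 on replicate 4 (10.33 to 10.40), Mmp14 at 8.30 on replicate 3 (8.84 to 8.93) and Tnfsf11 at 4.81 on replicate 2 (5.14 to 5.19).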

How the results depend on the processing

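The 166 genes past the threshold between day 18 and day 0 became 190 with the ankle arrays quantile normalized anew, 161 with arrays centred on their median, 157 without dim genes, 153 with a floor, 165 with the mean of probe sets, 164 with robust eBayes and 197 (47.7% higher) without the 4 arrays with liver transcripts. They became 106 (60 higher, 46 lower) with the arrays of the 2 days alone, 104 with the beta-actin ratio as covariate (60 and 44) and 1542 with array weights (746 and 796, 48.4% higher). Leaving out 1 array gave 56 to 227. For day 18 against day 7 the 5 genes became 3 after renewed normalization, 0 with the 2 days alone, 103 with array weights (49 and 54) and 11 without the arrays with liver transcripts, and 0 to 7 with 1 array left out. Against day 12 the 0 became 39 with array weights, and 0 to 1 with 1 array left out. With a replicate block the 3 counts were 412 (156 higher, 256 lower), 14 and 2. Deviations of same-numbered arrays of days 18 and 0 correlated at -0.069, 0.168 and 0.277, which does not meet the rule that every pair be over 0.1; the numbers of other days were not checked, and liver transcripts lie on replicate 1 of days 0, 1, 7 and 12. Of 1413 values of the 79 named genes past the threshold under these alternatives, 242 missed the threshold and 0 turned direction, and 32 genes kept their call in all of them. The cause of each change was not tested. Levels under 6.85 on the log2 scale cannot be told from background, which limits 49 of the 166 calls on both sides.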
